A study of Mus musculus with 14 samples.

Results

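The replication-dependent core histone genes were examined in RNA-Seq of sorted embryonic mouse kidney cells, in a design that removes MAPK/ERK signaling through loss of the kinases Mek1 and Mek2. Members were the protein-coding genes whose symbol in the GENCODE M21 annotation of GRCm38 begins with Hist1h, Hist2h, Hist3h or Hist4h followed by 2a, 2b, 3 or 4. This gave 61 genes among 55861 identifiers listed in either count table, 18 of them coding H2A, 18 H2B, 12 H3 and 13 H4. The Hist1 cluster on chromosome 13 holds 48 members, the Hist2 cluster on chromosome 3 holds 10, the Hist3 cluster on chromosome 11 holds 2 and Hist4h4 on chromosome 6 stands alone. All 61 were listed in both tables, and 50 in the ureteric bud (UB) and 54 in the metanephric mesenchyme (MM) had enough reads to be tested.

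The groups were 4 libraries labelled UB dko (HoxB7Cre-GFP;Mek1fl/fl;Mek2-/-) and 4 UB control libraries, all at E12.5, and 3 MM dko (Six2-TGC;Mek1fl/fl;Mek2-/-) and 3 MM control libraries, all at E13.5. By the labels, every control carried the same Cre transgene as its dko together with Mek1fl/+, MM controls were Mek2+/+, UB control 2 was Mek2+/+, and UB controls 1, 3 and 4 were Mek2+/-. The methods of the study also list UB controls with Mek1+/+ and MM controls with Mek2+/-, which no label here gives. Each library held the sorted GFP-positive cells of both kidneys of an embryo on a mixed C57BL6/Rcc and 129/SvEv background. HoxB7Cre-GFP drives recombination in the ureteric bud epithelium and Six2-TGC in nephron progenitors, so by design Mek1 is removed in those cells and Mek2 in the whole embryo.

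Core histones H2A, H2B, H3 and H4 form the protein spool of the nucleosome, around which DNA is wrapped. Their replication-dependent genes are transcribed mainly in S phase, when new DNA must be packaged, and proliferating progenitor cells therefore hold much of this RNA. These mRNAs usually carry no poly(A) tail and end instead in a conserved stem-loop, which the stem-loop binding protein SLBP recognizes. The libraries were made with random primers, as the methods of the study state, which can prime RNA without a tail.

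The stem-loop is a feature that the choice of members did not use, and it separated the H4 genes from the other families. A stem-loop of the canonical form was found within the annotated 3′ UTR of 42 of the 61 members (11 H2A, 10 H2B, 9 H3 and 12 H4), against 51 of 21890 other protein-coding genes (0.233%). It began 21 to 58 bases after the stop codon. Most members without a match had no annotated 3′ UTR of sufficient length to hold one, since 14 members had under 30 bases annotated there. The sites below are printed for members with many reads and for each variant of stem and loop, as DNA of the sense strand in GRCm38, with the 16 bases of stem and loop in capitals and 5 bases of flank on each side.
Hist1h2ab (chr13:23751567-23751592, plus strand): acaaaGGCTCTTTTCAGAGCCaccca
Hist2h2ac (chr3:96220413-96220438, minus strand): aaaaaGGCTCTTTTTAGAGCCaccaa
Hist1h2bg (chr13:23571838-23571863, plus strand): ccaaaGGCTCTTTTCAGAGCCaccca
Hist1h2bb (chr13:23747198-23747223, plus strand): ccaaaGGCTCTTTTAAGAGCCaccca
Hist1h3c (chr13:23745042-23745067, minus strand): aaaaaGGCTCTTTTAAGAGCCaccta
Hist1h3g (chr13:23535884-23535909, plus strand): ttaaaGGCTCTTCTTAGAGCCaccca
Hist1h4d (chr13:23581945-23581970, plus strand): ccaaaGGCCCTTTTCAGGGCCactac
Hist1h4b (chr13:23757361-23757386, plus strand): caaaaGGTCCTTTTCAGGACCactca
Hist1h4a (chr13:23760795-23760820, minus strand): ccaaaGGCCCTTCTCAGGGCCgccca
The left arm of the stem was GGCTCT in all 30 sites of H2A, H2B and H3 genes, and GGCCCT or GGTCCT in all 12 sites of H4 genes. The right arm could pair with the left at all 6 positions in each of the 42 sites. The search itself fixed GG and CT in the left arm and AG and CC in the right, which pair with each other. Only the middle positions of the stem could therefore have failed to pair.

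Promoter windows of RefSeq (GRCm38.p6; 250 bases before to 50 after a start) could be matched to 56 members. The pentamer CCAAT, read on both strands, was present in all 44 windows of H2A, H2B and H3 genes but in 3 of 12 H4 windows, beside 37.4% of 32851 promoters in the mouse table. TATAAA was present in 31 of 56 member windows (55.4%), beside 13.6% of all promoters. The octamer ATTTGCAT was present in 7 H2A and 6 H2B windows and in none of H3 or H4, beside 1.74% of all promoters. H2A and H2B genes often share a window, so these counts are not independent. The window of the member with the most reads in controls is shown for each family, from 120 bases before to 30 bases after the start, with these 3 motifs in either orientation in capitals.
Hist1h2ab (chr13:23750968-23751117, plus strand): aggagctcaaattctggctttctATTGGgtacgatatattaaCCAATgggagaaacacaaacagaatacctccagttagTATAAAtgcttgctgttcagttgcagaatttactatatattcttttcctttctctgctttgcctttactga
Hist1h2bg (chr13:23571280-23571429, plus strand): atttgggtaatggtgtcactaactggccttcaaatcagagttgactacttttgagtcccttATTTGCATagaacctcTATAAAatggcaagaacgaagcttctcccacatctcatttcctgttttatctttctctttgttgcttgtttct
Hist1h3c (chr13:23745492-23745641, minus strand): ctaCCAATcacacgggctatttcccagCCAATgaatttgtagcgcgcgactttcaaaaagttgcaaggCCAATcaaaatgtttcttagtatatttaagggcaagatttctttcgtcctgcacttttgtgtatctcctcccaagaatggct
Hist1h4d (chr13:23581448-23581597, plus strand): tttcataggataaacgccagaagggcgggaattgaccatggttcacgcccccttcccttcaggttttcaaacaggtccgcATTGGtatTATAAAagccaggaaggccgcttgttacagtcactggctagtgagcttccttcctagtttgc
A match describes these letters only, and no factor binding was measured.

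Libraries held 4857053 to 7493144 counts in the UB and 1443582 to 6442484 in the MM. Map2k2, which codes Mek2, was at 11.4, 24.7 and 17.0 normalized counts in MM dko and at 233, 279 and 211 in MM control. In the UB it was at 282, 43.6, 302 and 65.8 in libraries labelled UB dko 1 to 4 and at 200, 312, 400.0 and 217 in UB control. The libraries labelled UB dko 1 and 3 thus lay within the control range and go against their labels for this gene, although a gene-level count does not show which exons its reads cover. Map2k1, which codes Mek1, was not lower in either tissue, at 165, 145 and 112 in MM dko and 76.2, 83.9 and 99.8 in MM control (log2 fold change 0.70, SE 0.28, adjusted p = 0.0466). In the UB it was at 170 to 236 in libraries labelled UB dko and 125 to 184 in UB control (0.37, SE 0.24, adjusted p = 0.42). Excision of a floxed exon can leave RNA from the rest of the gene, so this count does not check the deletion. Ret, the receptor of the bud tip and a ureteric bud marker, was lower in all 4 libraries labelled UB dko (453 to 796) than in UB control (2052 to 2235). It was the only 1 of 10 tested ureteric bud markers called lower, and 0 were called higher (median log2 fold change -0.02). Among all genes in the UB 1.24% were lower and 2.7% higher. Six2 was at 738 to 2643 in MM dko and 2192 to 3389 in MM control. The main UB results are also given without libraries 1 and 3. In bulk samples, fewer cycling cells and less histone RNA in each cell cannot be told apart.

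In the MM, nearly the whole gene set was lower in dko. Per kilobase of gene model, Hist1h2ab stood highest in both kinds of control, at 5646 normalized counts per kilobase in MM control and 6702 in UB control, and Hist3h2a was at 14.1 and 26.3. Core histone genes summed to 2991 ± 1047 normalized counts in MM dko and 51224 ± 15689 in MM control (SD, n = 3 each), a 17.1-fold difference. By library, the sums were 1925, 4018 and 3030 in MM dko, against 59598, 60949 and 33125 in MM control. The groups were far apart, and MM control 3 held least among the controls. Of 54 members tested, 49 fell and none rose at an adjusted p under 0.05 (edgeR quasi-likelihood test), while 27.9% of all 12431 genes tested fell and 25% rose. No member was higher at an unadjusted p under 0.05 either, and DESeq2 also called 0 higher. The median log2 fold change was -4.39 over members, with or without the fitted value of a member at 0 replaced by its bound, and -0.05 over all genes tested. In 49 members every dko library lay below every control library, which held for 32.8% of all genes. Between 48 and 50 members were called lower when any 1 MM library was left out.

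**Figure D1:**
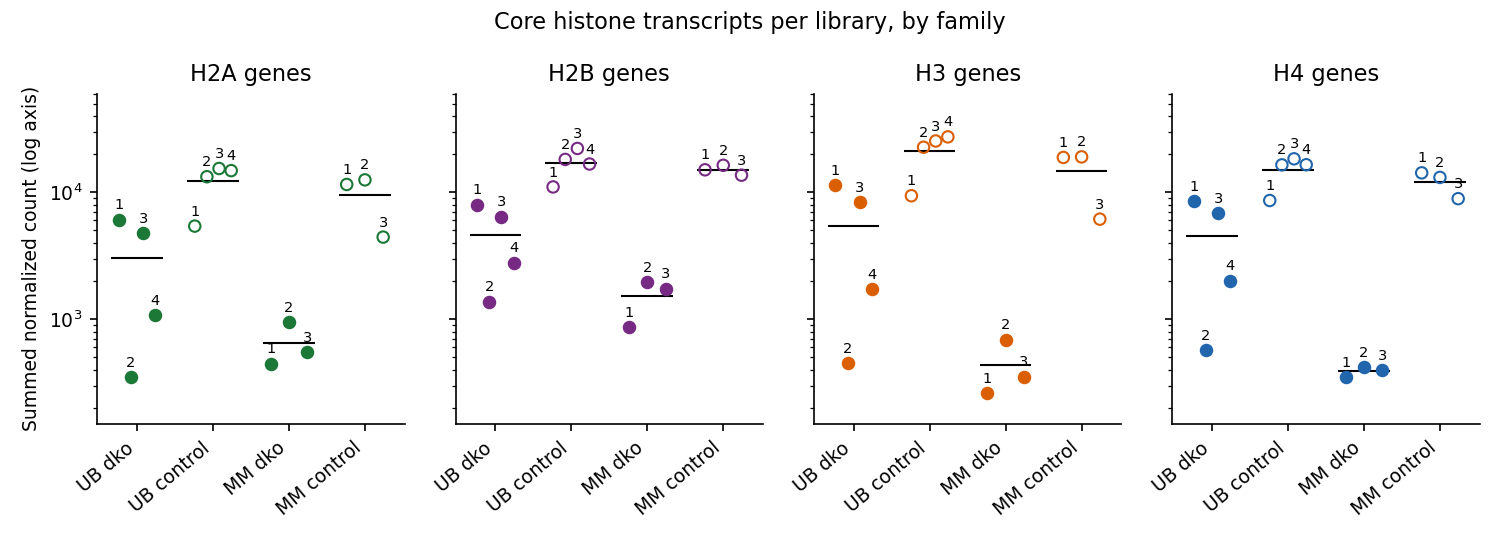
Summed normalized counts (log axis) of the H2A, H2B, H3 and H4 genes in each library, with filled points for dko, open points for control, digits for the library number and bars for group means. MM dko libraries lie below the MM controls in every family, whereas libraries labelled UB dko 1 and 3 lie near UB control 1.

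The H3 and H4 genes, which form the central tetramer of the nucleosome, showed the lowest levels in MM dko. H3 genes summed to 434 ± 226 normalized counts in MM dko and 14653 ± 7370 in MM control, a 33.8-fold difference, and H4 genes to 389 ± 35.6 in MM dko and 12078 ± 2803 in MM control, a 31.06-fold difference (SD, n = 3 each). Of the H3 genes 10 of 11 tested fell (median log2 fold change -5.66), and of the H4 genes 13 of 13 fell (median -5.11). Among these H4 genes Hist1h4m had 1 count over MM dko and 70 over MM control, and passed the filter through the controls. Hist1h3c, the H3 gene with the most reads in MM control, was at 43.8, 102 and 57.7 normalized counts in MM dko and at 3623, 3476 and 2129 in MM control. Its log2 fold change was -5.60 (SE 0.31, adjusted p = 6.13e-08), and its highest dko library was far below its lowest control library. Hist1h4d, the H4 gene with the most reads, was at 50.3, 102 and 76.4 in MM dko and at 3348, 3197 and 1664 in MM control (log2 fold change -5.23, SE 0.33, adjusted p = 2.7e-07). Hist1h4b had the smallest adjusted p of the members, with 9.73, 21.2 and 11.9 in MM dko and 704, 697 and 639 in MM control (log2 fold change -5.70, SE 0.28, adjusted p = 1.17e-08). Its dko libraries were close to each other, as were its controls. Of its 50-base windows 24.1% are unique among annotated transcripts, and 4930558J22Rik overlaps it on the opposite strand.

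Several members were almost absent from MM dko. Hist2h3b, an H3 gene of the Hist2 cluster, had no count in any MM dko library, against 544, 629 and 111 normalized counts in MM control. It was at least 212-fold lower, taking as the floor 3 counts over the dko group (adjusted p = 0.0217). The gene passed the filter through its control counts alone, and 14 of 16 alternative fits called it lower. None of its 50-base windows is unique among annotated transcripts searched on both strands, and Gm20628 overlaps it on the opposite strand. Its reads may therefore not be told apart from those of other annotated genes. Hist1h4k was at 0, 3.53 and 6.79 in MM dko and at 522, 415 and 235 in MM control (log2 fold change -6.81, SE 0.55, adjusted p = 7.31e-07). Hist1h2ai was at 0, 17.7 and 6.79 in MM dko, against 830, 887 and 655 in MM control (log2 fold change -6.97, SE 0.45, adjusted p = 1.36e-07). Both are short gene models with few unique windows, 28.5% for Hist1h4k and 9.88% for Hist1h2ai. With 5 and 9 counts over MM dko, both passed the filter through the controls. Hist1h3e fell by 6.84 on the log2 scale (SE 0.99) and Hist1h3a fell by 5.05 (SE 0.55).

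H2B genes, which pair with H2A at the flanks of the nucleosome, fell less. They summed to 1520 ± 576 normalized counts in MM dko and 14998 ± 1340 in MM control (SD, n = 3 each), a 9.87-fold difference, and 15 of 16 tested fell (median log2 fold change -3.71). Hist1h2bb had the smallest fall of the H2B genes of the Hist1 cluster, with 323, 498 and 581 in MM dko and 2456, 2899 and 2081 in MM control (log2 fold change -2.41, SE 0.22, adjusted p = 1.88e-06). The groups did not overlap. Hist1h2bg, the H2B gene with the most reads in MM control, was at 123, 555 and 300 in MM dko and at 3024, 3036 and 4060 in MM control (log2 fold change -3.43, SE 0.50). Hist1h2bf fell by 5.21 on the log2 scale (SE 0.31, adjusted p = 5.33e-08) and Hist1h2be by 3.87 (SE 0.22, adjusted p = 3.92e-08). H2A genes summed to 649 ± 266 in MM dko and 9495 ± 4410 in MM control, a 14.6-fold difference, and 11 of 14 tested fell (median -4.17). The distance between these 2 families was not kept once GC content and length were modelled in each library, with medians of -2.17 for H2B, -2.21 for H2A, -3.26 for H3 and -3.63 for H4.

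The H2A genes were the most uneven family. Hist1h2ah (log2 fold change -6.80, SE 0.94), Hist1h2ak (-6.20, SE 0.41) and Hist2h2ac (-5.63, SE 0.53) fell strongly, and Hist1h2ab (-4.07, SE 0.75), Hist1h2ac (-3.99, SE 0.49) and Hist1h2ae (-3.84, SE 0.70) less. Hist1h2af was at 165, 191 and 194 normalized counts in MM dko and at 573, 615 and 132 in MM control, a difference of -1.27 (SE 0.54, adjusted p = 0.085). MM control 3 alone lay below the dko libraries. Without it the gene fell by 1.71 (SE 0.19, adjusted p = 5.35e-05), whereas with GC and length offsets it was higher by 2.21 (SE 0.42, adjusted p = 0.00603). Of its windows 6% are unique, and a predicted antisense gene overlaps it, as holds for every H2A member, so this gene stayed uncertain. Hist1h2ao, at 12.98, 0 and 8.49 in MM dko and 12.2, 25.0 and 1.92 in MM control, did not pass the test either (adjusted p = 0.568). With GC and length offsets its log2 fold change was 2.31, and it was not called there.

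**Figure D2:**
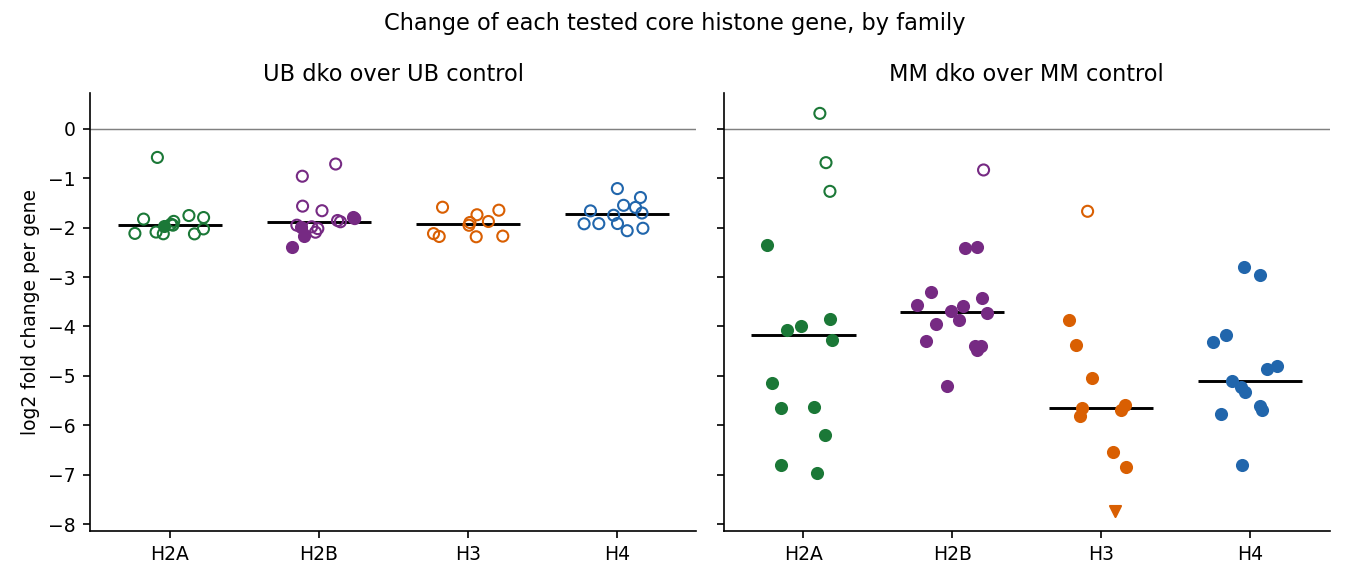
log2 fold change of each tested member, dko over control of the same tissue, by family, with filled points for an adjusted p under 0.05, open points for the others, bars for family medians and a triangle for Hist2h3b at its bound of -7.73. The UB points lie between -2.40 and -0.58, and the MM points spread from 0.31 to below -6.

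Outside the Hist1 cluster the response of single genes was mixed. Summed over the cluster, Hist2 genes were 17.1-fold lower in MM dko and Hist1 genes 17.6-fold. The difference was 5.49-fold for Hist3 and 8.14-fold for Hist4. In the Hist2 cluster 5 of 7 tested members fell in MM dko, among them Hist2h4 (log2 fold change -4.80, SE 0.30), Hist2h2bb (-2.40, SE 0.43) and Hist2h2ab (-2.36, SE 0.74). Hist2h2be was at 55.1, 31.8 and 69.6 normalized counts in MM dko and at 63.3, 107 and 118 in MM control, so the groups overlapped (log2 fold change -0.83, SE 0.37, adjusted p = 0.074). Its longest transcript has 2192 bases of 3′ UTR, no stem-loop was found in it, and all its windows are unique. Hist2h3c2, with 3.24 to 6.79 in MM dko and 13.6 to 16.9 in MM control, did not pass the test (adjusted p = 0.0759). Of the Hist3 genes, Hist3h2ba fell (8.11, 31.8 and 5.09 in MM dko, against 327, 305 and 138 in MM control; log2 fold change -4.39, SE 0.53). Hist3h2a was at 34.1, 31.8 and 45.8 in MM dko and at 40.8, 25.0 and 25.0 in MM control, with overlapping groups (log2 fold change 0.31, SE 0.46, adjusted p = 0.588). It was the only tested member with a fold change above 0, and with scaling by library size alone the value was -0.072. It shares its position with Trim17 on the same strand, so reads could belong to either gene. Hist4h4 fell by 2.97 (SE 0.32). Within Hist1, the 3 blocks of genes that could be tested, separated by gaps over 100000 bases, had similar medians of -4.47, -4.29 and -4.62.

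The pairs of H2A and H2B genes that are transcribed away from a common promoter region offered a comparison between neighbours. There were 12 such pairs, with 176 to 306 bases between starts, of which 10 could be tested in the MM. In 8 of these the H2A gene had the larger fall (median log2 fold change -5.38 for H2A and -3.66 for H2B), and with GC and length offsets this held in 7, with medians of -2.70 for H2A and -2.14 for H2B. Hist2h2ac and Hist2h2be, whose starts lie 239 bases apart, differed most among those with many reads, at -5.63 and -0.83 (-3.20 and -1.19 with the offsets). In the pair of Hist1h2bf and Hist1h2ad it was the H2B gene that fell more (-5.21, against -4.28). In the UB the medians over 9 pairs were -1.95 for H2A and -1.88 for H2B, and the H2A gene had the larger fall in 7, among them Hist2h2ac (-1.95, against -0.71 for Hist2h2be). Without libraries 1 and 3 labelled UB dko these medians were -4.11 and -3.24, and the H2A gene had the larger fall in all 9. In every pair the H2A gene, but not the H2B gene, overlaps an annotated gene on the opposite strand.

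With these unequal falls, the makeup of the remaining histone RNA differed between the groups. H2B genes held 45.1%, 48.7% and 57.2% of the core histone counts in MM dko 1 to 3 (95% Wilson intervals 42.3 to 47.9%, 45.8 to 51.6% and 54.9 to 59.5%), against 25.2 to 41.2% in MM control. H3 genes held 11.6 to 17.2% in MM dko and 18.5 to 31.6% in MM control. Neither share overlapped between the groups, but MM control 3 came closest to dko in both. Hist1h2bb alone averaged 15.6% of the summed normalized counts in MM dko and 4.84% in MM control. The intervals cover counting error only. In the libraries labelled UB dko the H2B share was 23.6 to 50.2%, which overlapped with the 22.2 to 32.0% of UB control. The overlap came from libraries 1 and 3 (23.6 and 24.3%), while libraries 2 and 4 (50.2 and 36.7%) lay above every UB control.

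**Figure D3:**
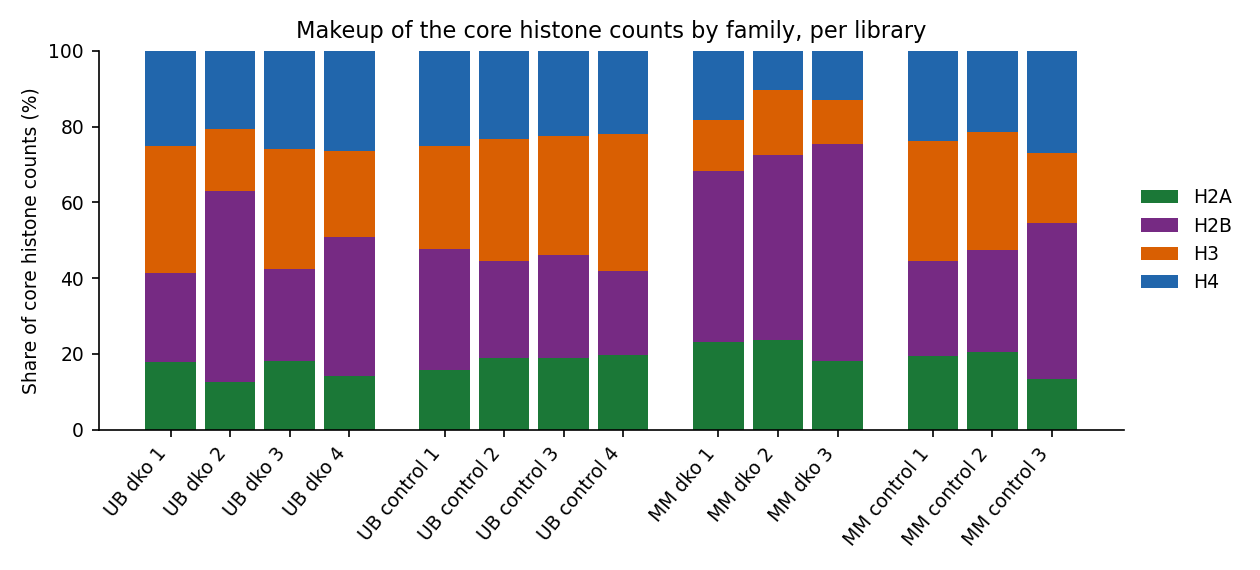
Share of the core histone counts (%) that falls on H2A, H2B, H3 and H4 genes in each library. H2B takes 45.1 to 57.2% in MM dko, and within the libraries labelled UB dko the H2B share is highest in number 2.

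In the UB the core histone genes were also lower on average, yet most of them did not pass the test. They summed to 17669 ± 14891 normalized counts in the libraries labelled UB dko and 65371 ± 21084 in UB control (SD, n = 4 each), a 3.70-fold difference. By library, the sums were 33920, 2742, 26427 and 7587 in libraries labelled UB dko 1 to 4, against 34440, 70487, 81237 and 75319 in UB control 1 to 4. Libraries 2 and 4 lay far below all controls, while libraries 1 and 3 lay close to UB control 1. All 50 tested members had a log2 fold change below 0 (median -1.91, beside 0.06 over all genes), and 43 of them had an unadjusted p under 0.05. At an adjusted p under 0.05, 5 fell and none rose, while 1.24% of 13425 genes fell and 2.7% rose. DESeq2 called 17 lower, beside 3.91% of all genes, and voom with quality weights 48, beside 16.4%. None was higher at an unadjusted p under 0.05 or by DESeq2. In 21 members every library labelled UB dko lay below every control, which held for 7.06% of all genes.

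The UB call rested on which libraries were included. Without libraries 1 and 3, whose Map2k2 was at the control level, 50 of 53 tested members were lower and the median was -3.64, beside 19.9% of all genes lower. Without libraries 2 and 4, 17 of 53 were lower and the median was -1.21, beside 3.89% of all genes. Leaving out libraries 1, 2, 3 or 4 labelled UB dko gave 26, 11, 8 or 0 members lower (beside 4.09, 0.866, 2.24 and 0.289% of all genes). Leaving out UB control 1 gave 3 and any other UB control 0, beside 0.0506 to 0.173% of all genes.

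The 5 members that fell in the UB were 4 H2B genes and 1 H2A gene. Hist1h2bp was at 43.0, 14.5, 42.2 and 16.2 normalized counts in libraries labelled UB dko and at 79.5, 206, 179 and 153 in UB control (log2 fold change -2.40, SE 0.47, adjusted p = 0.02). Hist1h2bb was at 1521, 434, 715 and 637 in libraries labelled UB dko and at 2002, 3078, 3937 and 2372 in UB control (log2 fold change -1.78, SE 0.36, adjusted p = 0.0217). In both genes even the library closest to control stayed below the lowest control. Hist1h2af fell by 1.96 (SE 0.41, adjusted p = 0.025), Hist1h2bh by 1.99 (SE 0.48, adjusted p = 0.0425) and Hist1h2bm fell by 2.17 (SE 0.53, adjusted p = 0.0452). Hist1h2bk, Hist1h2be and Hist1h4i missed the threshold narrowly (adjusted p = 0.0509, 0.0509 and 0.0503). Of the 5 genes, 4 also fell in the MM, all but Hist1h2af, beside 49 of 54 members and 27.9% of all genes there. All 5 were lower without libraries 1 and 3, a fit that reuses the remaining libraries and in which 50 of 53 members were lower. Their log2 fold changes there were -3.32 for Hist1h2bp, -2.41 for Hist1h2bb, -2.87 for Hist1h2af, -3.35 for Hist1h2bh and -3.62 for Hist1h2bm.

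H3 and H4 genes had mean differences in the UB similar to those of the other families. Every library labelled UB dko lay below every control in 2 of 10 H3 and 6 of 12 H4 genes. This held for 1 of 13 H2A and 12 of 15 H2B genes, beside 7.06% of all genes. Hist1h3c was at 1439, 84.2, 1238 and 255 in libraries labelled UB dko and at 1440, 3825, 4652 and 3817 in UB control (log2 fold change -2.18, SE 0.73, adjusted p = 0.123). Library 1 thus lay level with UB control 1, while library 2 was far lower. Hist1h4d was at 2200, 134, 1818 and 520 in libraries labelled UB dko and at 2266, 3787, 4805 and 4378 in UB control (log2 fold change -1.70, SE 0.66, adjusted p = 0.167). Without libraries 1 and 3 Hist1h3c was lower by 4.31 (SE 0.85, adjusted p = 0.0195) and Hist1h4d stood at -3.52 (SE 0.76, adjusted p = 0.0259). Family medians ranged from -1.95 for H2A to -1.73 for H4 (without libraries 1 and 3, -4.07 for H2A, -3.25 for H2B, -4.31 for H3 and -3.52 for H4), and no H3 or H4 gene was called. The smallest differences were those of Hist3h2a (-0.58, SE 0.42) and Hist2h2be (-0.71, SE 0.29).

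The larger fall in the MM was tested directly by an interaction of tissue and genotype over genes in both tables. Of 54 members, 51 had a larger fall in the MM (median difference -2.60 on the log2 scale, beside -0.13 over 15225 genes), and 4 passed the test, while 4.33% of all genes did. These were Hist1h4k (difference -4.86, SE 1.27, adjusted p = 0.0408), Hist1h4a (-3.70, SE 0.95, adjusted p = 0.0416), Hist1h2bf (-3.62, SE 0.94, adjusted p = 0.0388) and Hist1h2bq (-8.44, SE 1.93, adjusted p = 0.0273). Hist1h2bq rested in the UB on 10 counts in the single library labelled UB dko 1, and 2.75% of its windows are unique. Without libraries 1 and 3 labelled UB dko, 1 of 57 members passed, beside 2.14% of all genes, and the median difference was -0.80. Without libraries 2 and 4 it was 41 of 57, beside 18.4%, and -3.29. Leaving out library 2 gave 32 members, beside 11.9%, and library 4 gave 12, beside 7.3%. Leaving out any other single library of either tissue gave 0 or 1, beside 0.154 to 3.62%. Stage, transgene and Mek2 dose of the controls differ between the tissues and cannot be told apart from tissue here.

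**Figure D4:**
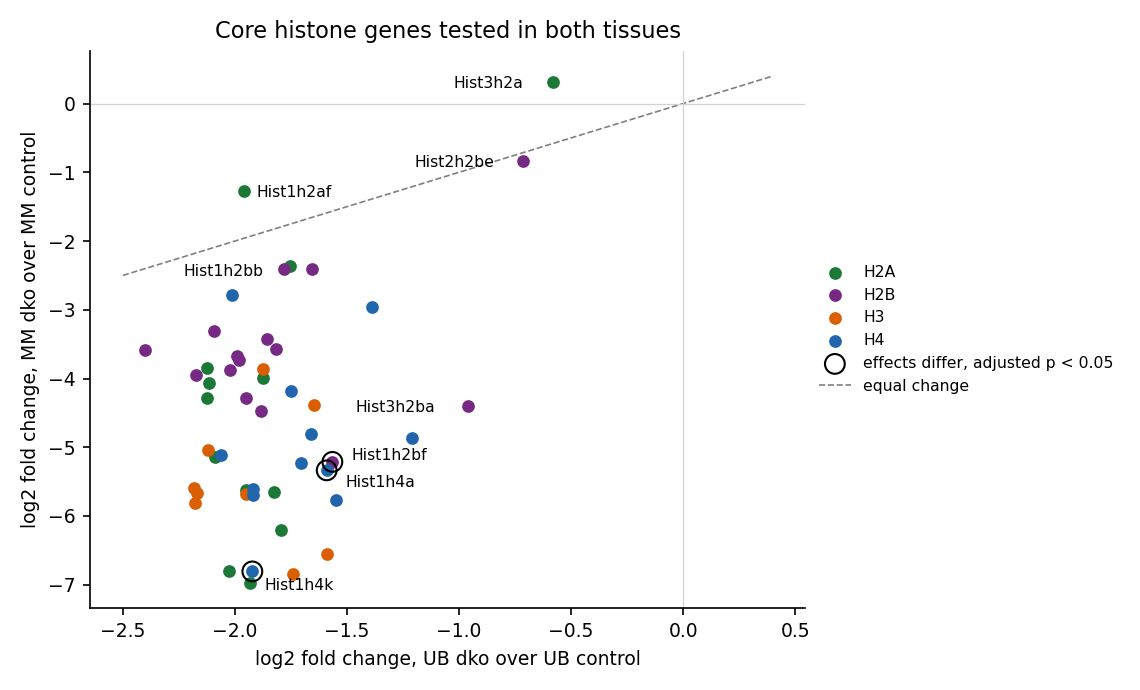
log2 fold change in the MM against that in the UB for 49 members tested in both tissues, coloured by family, without Hist2h3b, which has no count in MM dko. Most points lie below the dashed line of equal change, Hist2h2be lies just below it, and Hist3h2a and Hist1h2af lie above it.

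Base composition moved with these results. Members had a median GC content of 59.1%, while all genes tested had a median of 48.6% in the UB and 48.4% in the MM. In MM dko the fifth of genes with the lowest GC content stood above the fifth with the highest by 2.20 to 3.23 on the log2 scale relative to the control mean, against -0.12 to 0.06 in MM control. In the UB this gap was 2.27 and 1.62 in libraries labelled UB dko 2 and 4, -0.19 and -0.26 in libraries 1 and 3, and -0.28 to 0.46 in UB control. The libraries with the lowest histone sums were therefore those with the widest gap. Mitochondrial rRNA took 15.9, 14.8 and 11% of counts in MM dko and 1.73 to 2.27% in MM control, and 1.398, 6.40, 7.02 and 3.23% in libraries labelled UB dko, against 1.05 to 1.37% in UB control. Gm42418, a predicted gene, took 32.5% of counts in the library labelled UB dko 3 but 3.26 to 4.65% in the other UB libraries.

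Members also lay below other genes of like GC content. In the MM, 44 of 54 members lay below the 5th percentile of other genes in their own GC interval, and their median distance from the median of that interval was -3.17. In the UB it was 38 of 50 and -1.58, and 36 of 53 and -2.51 without libraries 1 and 3. With GC and length offsets, 45 of 54 members were called lower and 1 higher in the MM (median -2.92), beside 11.7% of all genes lower, and 12 of 50 were lower in the UB (median -1.44), beside 3.59%. Among members, the Pearson r of log2 fold change with GC content was -0.35 over 53 genes in the MM and -0.34 over 50 in the UB, points that share libraries and near-identical sequence. The part of base composition in the falls was not tested beyond these values.

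**Figure D5:**
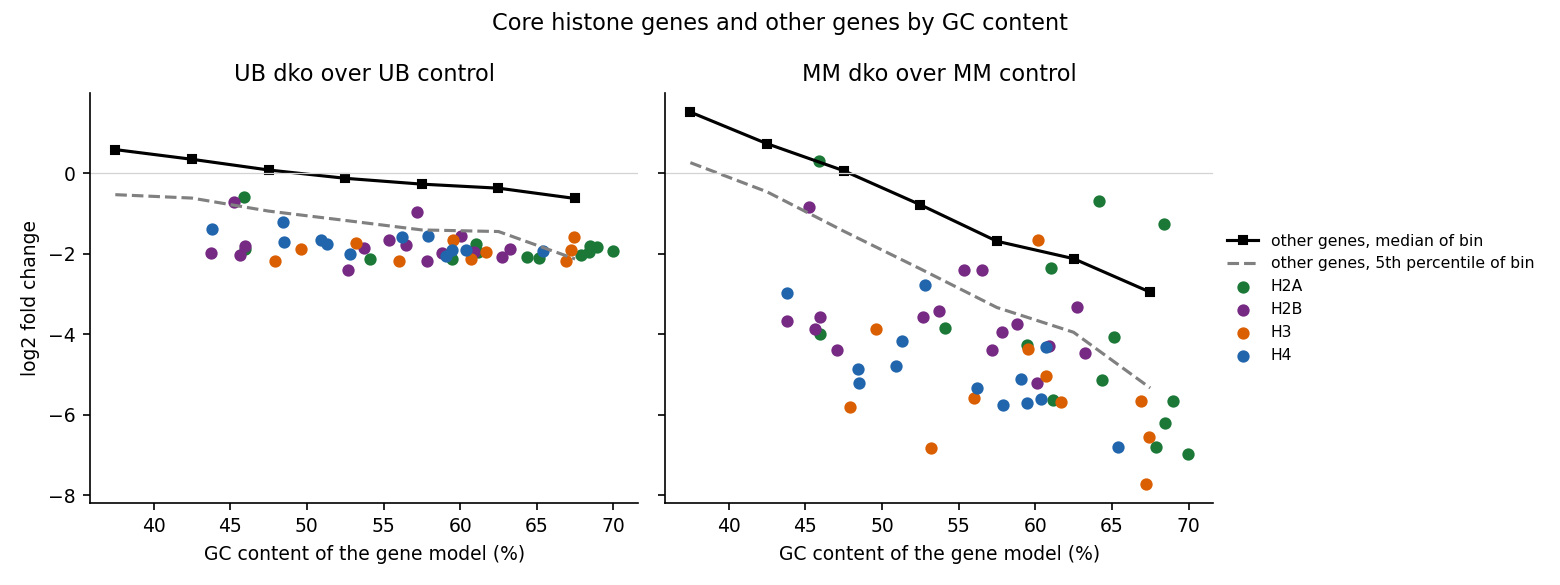
log2 fold change against GC content of the gene model (%) for the tested members, by family, with the median (line with squares) and the 5th percentile (dashed line) of other genes in 7 GC intervals. In both tissues other genes decline with GC content, and 38 of 50 members in the UB and 44 of 54 in the MM lie below the dashed line, with Hist2h3b drawn at its bound.

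Individual control libraries also differed by family. MM control 3 lay below MM controls 1 and 2 in the median of each family, with log2 differences of -2.05 for H3 genes, -1.63 for H2A, -0.66 for H4 and -0.35 for H2B. UB control 1 lay below the other UB controls, with differences of -1.398 for H3, -1.37 for H2A, -1.004 for H4 and -0.80 for H2B. In the MM the order differed from that of the falls, since H4 genes fell more than H2A genes in dko but varied less between the controls. In the UB without libraries 1 and 3 labelled UB dko, the falls had the order of UB control 1. Those medians were -4.31 for H3, -4.07 for H2A, -3.52 for H4 and -3.25 for H2B. With all UB libraries they were -1.92 for H3, -1.95 for H2A, -1.73 for H4 and -1.88 for H2B, another order. Without MM control 3 the median over members was -4.65, and 50 of 54 were lower.

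Genes that act with the core histones were counted from lists, to be read beside the 27.9% of all genes that fell and 25% that rose in MM dko, and the 1.24% that fell in the UB. All 7 tested linker histone H1 genes fell in MM dko (median log2 fold change -3.51), and Hist1h1d fell in the UB (-2.21, SE 0.49, adjusted p = 0.0301). Of the 9 replication-independent variants, whose genes are read outside S phase as well, 3 fell and 1 rose in MM dko. H2afx, which codes H2AX and is known to make both a stem-loop and a polyadenylated mRNA, fell by 3.87 (SE 0.30), whereas H3f3a, coding H3.3, rose by 0.77 (SE 0.16). Of 21 genes of histone mRNA transcription and processing, 9 fell and 5 rose in MM dko. Npat, the activator of histone gene transcription, rose by 1.27 (SE 0.19) and Casp8ap2 by 1.39 (SE 0.18), while Sympk fell by 2.10 (SE 0.21). Among 38 S-phase genes 25 fell and 2 rose in MM dko, and 14 fell in the UB, among them Cdc6 (-1.33, SE 0.20, adjusted p = 0.00772) and Tk1 (-1.75, SE 0.30, adjusted p = 0.0125). Of 13 histone chaperone genes 6 fell and 1 rose in MM dko, and Asf1b fell in the UB (-1.41, SE 0.35, adjusted p = 0.0475). In the UB without libraries 1 and 3, 8 of 8 linker histone genes, 27 S-phase genes and 7 chaperone genes were lower, beside 19.9% of all genes.

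Markers of other cells did not move in a single way. In MM dko the stromal list summed to 1208 to 1580 normalized counts, against 666 to 1028 in MM control. Of 6 tested genes 1 fell and 2 rose, beside 27.9% of all genes lower and 25% higher. Foxd1 was higher by 1.498 (SE 0.21) and Meis1 by 0.91 (SE 0.24), while Pdgfrb was lower by 2.33 (SE 0.65). Nephron progenitor markers summed to 8020 to 10153 in MM dko and 10228 to 11011 in MM control, and of 10 tested genes 4 fell and 1 rose. The erythroid list summed to 8.49 to 194 in MM dko and 8.12 to 58.9 in MM control, and the leukocyte list to 6.79 to 31.8 in MM dko and 22.4 to 46.1 in MM control. Hba-a1 and Hba-a2 were at 0 in every library of both tissues. The part of these cells in the histone result was not tested.

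The genes whose pattern over the libraries was most like the mean of the members were found by Pearson r on log2 CPM. Over the 6 MM libraries these were Rps4l, Flad1, Erf, Rpl26 and Ubtd1 (r = 0.998 to 0.999). Over the 8 UB libraries they were Tkt, Flywch1, Vars, Hist1h1c and Pprc1 (r = 0.991 to 0.994). With so few libraries in separate groups, such r values describe the split between libraries.

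Not all members could be measured. Hist1h2aa and Hist1h2ba, which are known from the testis, and Hist2h2aa1 and Hist2h3c1 had at most 1 count in either tissue. Hist1h2br had no count in libraries labelled UB dko and 86 in UB control, most of them in a single library, and Hist1h2ao had 433 counts in UB control, of which 432 fell in UB control 3. Hist2h2aa2 had 0 counts in MM dko and 100 in MM control, 82 of them in a single library. Of the windows of these 3 genes at most 11.5% are unique. In all, 34 of 61 members had under 50% of their 50-base windows unique and 5 had none. The 8 tested members with at least 80% unique windows had medians of -3.93 in the MM, where 7 fell, and -1.68 in the UB, where 1 fell. Another annotated gene on the opposite strand overlaps 21 members, which are all 18 H2A genes, Hist1h4b, Hist2h3b and Hist2h2bb. The strand setting of the counting is not given in the sources used here, so this limit falls mostly on the H2A family.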

How the data were processed

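RNA was measured in 14 libraries of FACS-sorted cells, made with the NuGen Ovation Solo kit, depleted of rRNA before amplification and sequenced single-end. After trimming with Trimmomatic, the authors used STAR for alignment to GRCm38 and featureCounts for assignment to the GENCODE M23 annotation. By its methods, the study normalized and tested the counts with DESeq2. HISAT2 and HTSeq also stand in the submitters' notes, where no role is given. The deposited values are raw read counts per gene, 1 table per tissue.

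Genes were named by Ensembl ID through GENCODE M21, which held 55154 of 55335 identifiers in the UB and 52403 of 52636 in the MM. Each tissue was tested on its own with edgeR 4.0.16 in R 4.3.3 (TMM scaling and robust quasi-likelihood F test, on genes kept by filterByExpr at a count of 10 and a total of 15), with Benjamini-Hochberg adjustment over all genes tested. Normalized counts are counts scaled by TMM to the average effective library size. The SE is the size of the log2 fold change over the square root of F. Library medians used log2 CPM with a prior count of 2. The interaction of tissue and genotype was fitted over genes in both tables. Where embryos share a litter, p-values do not account for it.

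Members and gene lists were chosen with earlier results of these data known. Genes were named by a rule: the members named by the study, every tested Hist2, Hist3 and Hist4 member, and per family and tissue the 3 of highest mean count and the 2 of smallest adjusted p in each direction. From each other list the rule takes the 2 of smallest adjusted p in each direction. Members outside it were chosen after their values were seen. Stem-loops were searched in GENCODE transcripts after the stop codon, and promoters came from RefSeq.

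Alternatives in tool were DESeq2 1.42.0 and voom of limma 3.58.1 with quality weights, and in scaling RLE, library size alone and TMM computed after removal of histone, ribosomal and mitochondrial genes. The filter was dropped or set to a mean count of 10. GC content and length entered as offsets from splines (4 degrees of freedom per library), with and without a block for the replicate number, and libraries were left out singly or, in the UB, in pairs. Within a tissue, the edgeR, DESeq2, voom, offset and block fits were tested on simulated data, as was the edgeR interaction fit. The other scalings and filters, the offsets with the block, the fits with libraries left out and the alternative interaction fits were not.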

Additional observations from a re-analysis of the deposited data

Results flagged for a closer look

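Among 76 groups of 4 UB libraries examined for a library apart from the others, 1 was found, while chance gives about 1 in 20. Hist1h2ai in UB control 1 had 391 normalized counts, far below the 1004, 1077 and 1096 of the other UB controls.

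The change of 4 of 54 members differed between the tissues by the interaction test, beside 4.33% of all genes with a larger fall in the MM. As MM effect minus UB effect on the log2 scale, these were -3.70 for Hist1h4a, -4.86 for Hist1h4k, -3.62 for Hist1h2bf and -8.44 for Hist1h2bq. Without libraries 1 and 3 labelled UB dko, 1 of 57 members passed, beside 2.14% of all genes. Hist1h2bq had 10 counts in 1 UB library and no count in the other UB libraries.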

How the results depend on the processing

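In the MM the count of members lower was 45 to 52 under the alternatives in scaling, filter, tool, offsets and block, and 48 to 50 with any library left out, while restriction to members with at least 80% unique windows gave 7 of 8. Offsets for GC content and length moved the MM medians to -2.92 over all members, -2.21 for H2A, -2.17 for H2B, -3.26 for H3 and -3.63 for H4, and called 1 member higher in the MM and 1 with a larger fall in the UB. With these offsets Hist1h2af in the MM was at 2.21 and Hist2h3c2 at 0.59, and with the block added at 2.30 and 0.53. Hist1h2ao, a gene of few reads, stood higher, at 2.31 with the offsets and 2.57 with the block added, but was not called. In each of these 2 fits 2 members were higher at an unadjusted p under 0.05. Scaling by library size alone moved the median of all genes to -0.28 in the UB and -0.44 in the MM (220 genes lower and 58 higher in the UB, against 166 and 362 with TMM, and 4701 and 1871 in the MM, against 3465 and 3105), and gave -5.51 for the MM H4 median and -0.072 for Hist3h2a. With the offsets and the block together the MM medians were -2.87 over all members, -2.14 for H2A, -2.21 for H2B, -3.13 for H3 and -3.62 for H4, with 1 member higher.

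The UB count of 5 lower became 17 with DESeq2, 8 with RLE scaling, 15 with library size only, 8 where TMM left out histone, ribosomal and mitochondrial genes, 48 with voom, 12 with the offsets, 8 with the offsets and the replicate block, 17 without libraries 2 and 4, 50 without libraries 1 and 3, and 1 of 8 among members with at least 80% unique windows. Without libraries 1 and 3 the UB medians were -4.07 for H2A, -3.25 for H2B, -4.31 for H3 and -3.52 for H4. With any library left out, the UB count ran from 0 to 26, the UB median from -2.42 to -1.55 and the family medians from -2.55 to -1.57 (H2A), -2.28 to -1.60 (H2B), -2.66 to -1.54 (H3) and -2.27 to -1.39 (H4). In the MM the median then ran from -4.82 to -4.08, with -4.95 to -3.82 (H2A), -3.93 to -3.46 (H2B), -6.07 to -5.32 (H3) and -5.25 to -5.00 (H4). The count with a larger fall in the MM was 23 with DESeq2, 43 with no filter, 41 without UB dko libraries 2 and 4, 1 without libraries 1 and 3, and 0 to 32 with any library left out, and DESeq2 and no filter each called 1 member with a larger fall in the UB. The cause was not tested.

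Samples with the same replicate number did not deviate together (r was -0.28 to 0.12 over UB pairs, -0.06 to -0.02 over MM pairs), so the numbers were not taken as pairs. With the replicate block 0 UB members were lower by edgeR, 31 of 50 at an unadjusted p under 0.05, and 49 MM members were lower. Depth in MM dko limits single members, since 1137 to 1785 counts fell on all members in a library.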
